A study of Homo sapiens with 7 samples.

Results

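The ATF4 and MYC peaks near 10 genes that are not usually named among the amino acid supply targets of ATF4 are described for DLD-1 colon cancer cells. They were STK40, TBL1X, TXNDC12, BTF3L4, IRAK1BP1, ARHGAP9, OXR1, NRSN2, RACK1 and VLDLR, 10 of 20037 protein-coding genes. They were selected on measured values, namely ATF4 and MYC peaks listed at or near the same place in activated cells. Peaks were assigned to a gene when their centre lay inside or within 10 kb of the gene span. This gave 56 of the 37164 peaks of the 6 lists, of which 45 lay at 9 sites with both factors, TXNDC12 and BTF3L4 having 1 site in common. At 7 of the 9 sites each factor was found in both of its libraries and the merged regions of the factors overlapped, although at STK40 only the replicate 2 peaks touched, by 3 bp. At RACK1 the peaks of the factors did not overlap, and at VLDLR a MYC peak was listed in 1 library only. Within the 10 kb window 8 of the 10 genes had an overlapping site, against 61 of all protein-coding genes (0.304%). All 10 genes had a repeated ATF4 region in activated cells (1.4% of all genes), 5 had one in control cells (0.524%) and 9 had a repeated MYC region (25.2%), where repeated means a peak in both libraries. These counts follow from how the genes were chosen and are given as a description.

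The libraries came from DLD-1, an established human colon adenocarcinoma line that had received a retrovirus for MycER, a MYC protein fused to a hormone-binding domain of the estrogen receptor. All groups carry MycER. ATF4 was immunoprecipitated from 2 control samples (vehicle) and from 2 samples after 8 hr of MYC activation with 500 nM 4-hydroxytamoxifen, MYC from 2 samples after the same activation, while 1 IgG sample was not analysed here. No group had the drug without MycER, so the drug and MYC activity cannot be told apart. The samples hold no MYC library from control cells. The labels do not say whether replicates were separate cultures, and the p-values therefore cover the spread among the libraries at hand, possibly a technical one. Signal is the authors' normalized tag count, tags in a peak per 10 M tags of the library, called tags here. Peaks of replicates 1 and 2 were 184 and 212 bp wide for control ATF4 and 170 and 204 bp for activated ATF4. Those of MYC were 148 and 176 bp wide, and tags were not scaled to these widths. Replicate 1 libraries held 21.0 to 24.9 M tags and replicate 2 libraries 49.8 to 50.3 M, so depth follows the replicate number. Peak lists do not measure RNA, so the cell label could not be checked by expression. Repeated MYC regions were found within 10 kb of 5 of 10 colon epithelium markers and 2 of 10 fibroblast markers, beside 25.2% of all protein-coding genes, which says little of the cell type. ATF4 had a repeated region at 0 genes of either list in activated cells.

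ATF4 is a basic leucine zipper factor made in quantity when translation is slowed by stress kinases, and with a C/EBP-type partner it binds a composite element known from genes of amino acid supply. MYC pairs with MAX and binds the E-box, a palindrome found at many growth genes. The promoter windows of RefSeq (GRCh38.p14, 250 bases before to 50 after each transcription start) were searched on both strands for TGATGNAA (the composite element), TGACGTCA (the cAMP response element), CACGTG (the E-box) and CACGCG (a variant E-box). Windows were found for 8 of the 10 genes, and for MARS1, whose start lies at the ARHGAP9 site.

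The windows of TBL1X and MARS1 are shown because, of the windows searched for these genes, they held centres of both factors and also a motif match close to them. The strand is that of the gene, capitals mark matches to TGATGNAA (here in reverse complement) and to CACGTG, and TBL1X spans chrX:9463045-9463294 and MARS1 chr12:57487818-57488071.
TBL1X: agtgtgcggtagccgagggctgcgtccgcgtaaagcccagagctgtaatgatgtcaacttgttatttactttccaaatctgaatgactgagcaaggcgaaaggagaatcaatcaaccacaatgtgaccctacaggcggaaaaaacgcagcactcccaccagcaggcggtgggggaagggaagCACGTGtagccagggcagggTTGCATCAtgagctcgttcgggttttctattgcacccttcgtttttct
MARS1: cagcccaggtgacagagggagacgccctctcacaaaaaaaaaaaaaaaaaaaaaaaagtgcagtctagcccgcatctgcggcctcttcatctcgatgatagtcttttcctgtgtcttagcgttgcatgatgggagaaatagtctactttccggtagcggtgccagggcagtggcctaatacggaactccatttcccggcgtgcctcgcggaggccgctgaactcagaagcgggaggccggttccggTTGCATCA
Read on the opposite strand, so that the element is spelled as TGATGNAA, the 2 elements with 4 flanking bases were the following.
TBL1X element: ctcaTGATGCAAccct
MARS1 element: tcgcTGATGCAAccgg
At TBL1X the E-box lay from 68 to 63 bases before the start and the composite element from 48 to 41 bases before it. Of all 34943 promoter windows 62 held both (0.177%), 1266 held the composite element (3.62%) and 2526 the E-box (7.23%). The cAMP response element was in 1.84% and the variant E-box in 11.4% of windows, and neither was in these windows. A repeated activated ATF4 region had its centre in 18 windows, of which 16 held the composite element, at a median of 13.0 bp from the ATF4 centre. A repeated MYC region had its centre in 637 windows, of which 190 held the E-box (29.8%), at a median of 26.8 bp. Centres of both factors lay in 5 windows, and TBL1X was the only one of these with both motifs. The other windows of the 10 genes held CACGTG between TXNDC12 and BTF3L4 and CACGCG at TXNDC12 and VLDLR, and those of STK40, IRAK1BP1, NRSN2 and RACK1 held none of the 4 motifs. The peaks near those genes lie outside the windows searched or away from the matches, so this says nothing of the letters under them. A match describes letters and does not show that a factor sits on them.

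**Figure D1:**
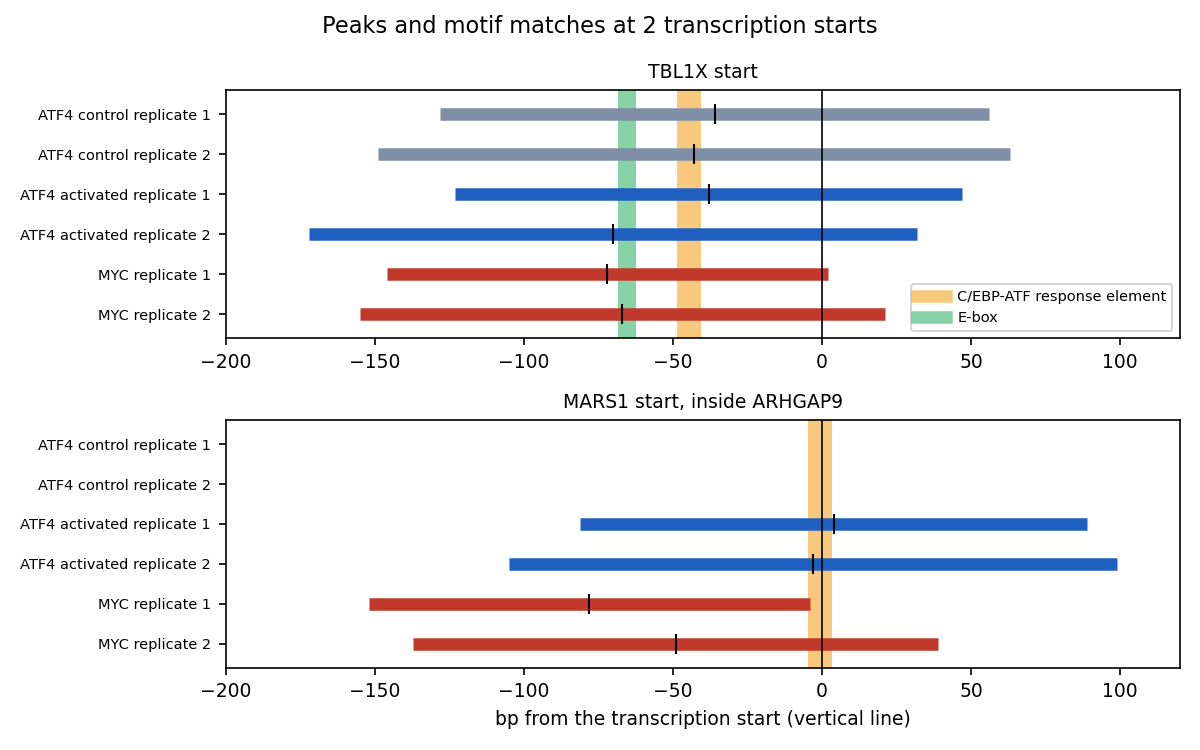
Peaks of each library (bars, with the centre as a tick) and motif matches (shaded) in bp from the transcription start of TBL1X and of MARS1. Both MYC centres at TBL1X sit within 6.5 bp of the E-box centre, and both ATF4 centres at MARS1 within 4.5 bp of the composite element.

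TBL1X, a WD-repeat subunit of the NCoR corepressor complex, had the most MYC tags of all 65 regions that the factors shared, and a modest ATF4 peak. MYC replicates 1 and 2 had 23.3 and 34.1 tags, which ranked 29th by mean among 6313 repeated MYC regions. ATF4 had 6.7 and 4.97 tags in control and 5.61 and 7.84 tags in activated replicates 1 and 2 (chromosome X, 9463123 to 9463358), so the groups overlapped. MYC tags were 4.15 and 4.35 times those of activated ATF4 in replicates 1 and 2. MYC centres lay 6.5 and 1.5 bp from the middle of the E-box. ATF4 centres lay 8.5 and 1.5 bp from the middle of the composite element in control and 6.5 and 25.5 bp in activated replicates 1 and 2, and the last of these was 4.5 bp from the E-box. The site lies 54.0 bp before the first TBL1X start.

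The ARHGAP9 site lies inside the annotated span of ARHGAP9, a GTPase-activating protein, and on the start of MARS1, the methionyl-tRNA synthetase, whose span overlaps that of ARHGAP9. ATF4 had 7.22 and 8.04 tags in activated replicates 1 and 2 (chromosome 12, 57487963 to 57488167) and no listed peak in either control library. Its mean centre was 0.5 bp from the MARS1 start, and the replicate centres were 4.5 and 2.5 bp from the middle of the composite element that straddles this start. MYC had 4.28 and 6.99 tags, fewer than ATF4 in both replicates, and its centres lay 77.5 and 48.5 bp from the element. The MYC peaks here were weak within their list, at rank 4996 of 6313, and no CACGTG was found in the window. ARHGAP9 is known mainly from blood cells. None of its 3 paralogues in the list had a repeated region of either factor, beside 25.2% (MYC) and 1.4% (activated ATF4) of all genes, which says little for 3 genes.

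By the mean of the activated libraries STK40 and NRSN2 had the most ATF4 tags of the 9 sites, closely followed by OXR1, which had the most in replicate 1. The ATF4 peaks at STK40 and NRSN2 were present without MYC activation, as were those at OXR1, TBL1X and VLDLR. STK40 is a pseudokinase of the Tribbles family. It had 16.5 and 10.5 ATF4 tags in control and 17.2 and 19.1 in activated replicates 1 and 2, 720.5 bp before its start (chromosome 1, 36386528 to 36386745), with a MYC peak of 11.4 and 20.4 tags. Both activated libraries were above both control libraries, with ratios of 1.04 in replicate 1 and 1.82 in replicate 2. The same region lies inside LOC124904012, an uncharacterized transcript that starts 453.5 bp away on the opposite strand.

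The NRSN2 site lies 7735 bp beyond the span of NRSN2, a neuronal vesicle membrane protein, and 18163 bp from TRIB3, the Tribbles pseudokinase best known as an ATF4 target. It had 14.3 and 9.34 ATF4 tags in control and 15.2 and 15.7 in activated replicates 1 and 2 (chromosome 20, 362493 to 362708). MYC had 15.2 and 24.9 tags there, rank 163 of 6313. The site is therefore nearest to NRSN2 while lying between NRSN2 and TRIB3. By the Euclidean distance of log2(tags + 1) over the 6 libraries, the shared region most like that of STK40 was the NRSN2 site (0.621), followed by regions inside EIF4EBP1 (0.793) and 260199 bp from KLF4 (0.84).

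**Figure D2:**
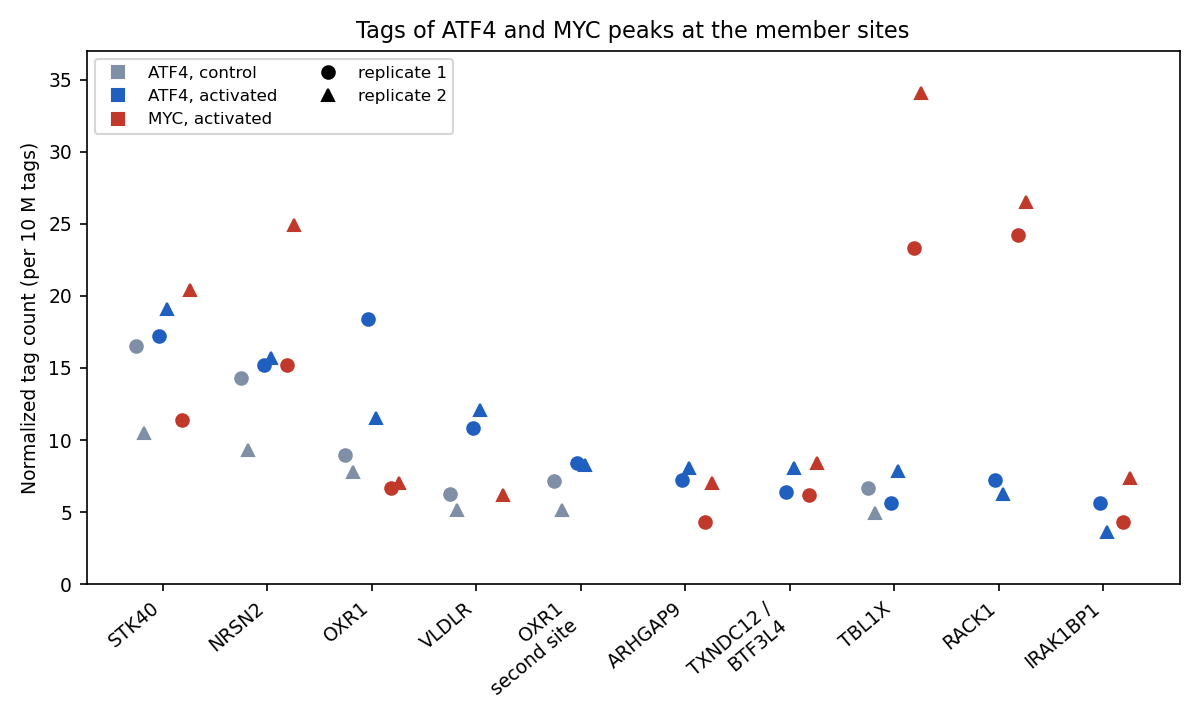
Normalized tag count (linear axis, per 10 M tags) of every listed peak at the 10 repeated ATF4 regions of the genes, by group (colour) and replicate (shape), ordered by mean activated ATF4 tags. MYC is highest at TBL1X and RACK1, ATF4 at STK40, and 4 sites have no control peak.

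TXNDC12 is a thioredoxin-like oxidoreductase of the endoplasmic reticulum, and BTF3L4 is a paralogue of BTF3, a subunit of the complex that meets nascent chains at the ribosome. Their outer starts lie 124 bp apart, on opposite strands. Their common site had 6.41 and 8.04 ATF4 tags and 6.18 and 8.38 MYC tags in replicates 1 and 2 (chromosome 1, 52055658 to 52055862), nearly equal in each replicate. It lay 413 bp inside TXNDC12 from its outer start, 567 bp before its inner start and 537 bp before the BTF3L4 start. The folds over the background library were 3.09 and 3.87 for ATF4 and 2.97 and 3.63 for MYC, and 2.97 was the lowest of the 45 peaks at the 9 sites. The window between the genes holds an E-box that the peaks miss, shown because it contrasts with TBL1X (capitals, chr1:52056254-52056283, strand of BTF3L4).
BTF3L4: ggtcggctgtatCACGTGgatctgctcccg
The nearest MYC centres were 646.5 and 637.5 bp away from this E-box.

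RACK1 is a scaffold of the small ribosomal subunit with a part in the response to stalled ribosomes. Its MYC peak was strong, with 24.2 and 26.5 tags (rank 58 of 6313), 174 bp inside the gene from its start. The ATF4 peak lay on the other side of the start, 676 bp before it (chromosome 5, 181244478 to 181244682), where activated replicates 1 and 2 had 7.22 and 6.23 tags and control had no listed peak. Centres of the factors were 855 and 845 bp apart in replicates 1 and 2, so the factors had neighbouring peaks and not a common one. Of 11 other factors of ribosome stalling, 3 (ZNF598, GCN1 and TRIP4) had a repeated MYC region within 10 kb and 0 an ATF4 region, both near the shares of all genes (25.2% and 1.4%).

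IRAK1BP1, a binding partner of the kinase IRAK1 in interleukin-1 signalling, had the fewest ATF4 tags of the 9 sites by the activated mean. It did not have the fewest MYC tags, which were at ARHGAP9 among the sites with a MYC peak in both libraries. ATF4 had 5.61 and 3.62 tags in activated replicates 1 and 2 and none listed in control, and MYC had 4.28 and 7.38 tags (chromosome 6, 78867756 to 78867960). The site lay 312 bp inside the gene from its start, and LOC107986613 starts 373 bp away on the opposite strand. ATF4 ranked 320 of 352 repeated activated regions. Folds over the background library at this site were 48.6 and 31.3 for ATF4 and 41.2 and 63.9 for MYC in replicates 1 and 2. These were well above those at TXNDC12, but the authors' folds over the local surroundings of the peak were not. The local folds were 9.99 and 4.14 for ATF4 and 5.61 and 8.98 for MYC in replicates 1 and 2. At TXNDC12 they were 8.81 and 8.14 for ATF4 and 7.54 and 8.03 for MYC. The 4.14 was the lowest local fold of the 45 peaks at the 9 sites. In replicate 1 ATF4 had more tags than MYC and in replicate 2 fewer, so their order was not stable here.

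OXR1, an oxidation resistance protein with a TLDc domain, had 2 repeated ATF4 regions inside its long span, only 1 of which had MYC peaks. The MYC-bound site (chromosome 8, 106624722 to 106624947) had 8.93 and 7.75 ATF4 tags in control and 18.4 and 11.5 in activated replicates 1 and 2, with 6.65 and 6.99 MYC tags. The second site (106608149 to 106608367) had 7.14 and 5.17 tags in control and 8.42 and 8.24 after activation. At both sites each activated library exceeded each control library. Both sites also lie inside the span of a further annotated gene, OXR1-AS1. A separate MYC region inside OXR1 had 4.75 and 3.99 tags and no ATF4 peak.

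VLDLR is a receptor for lipoproteins and reelin whose gene is known to respond to ATF4 in stressed cells. It had 6.25 and 5.17 ATF4 tags in control and 10.8 and 12.1 in activated replicates 1 and 2, 460.5 bp before its start (chromosome 9, 2621162 to 2621424). The groups did not overlap, with ratios of 1.73 and 2.34 in replicates 1 and 2. VLDLR-AS1, on the opposite strand, also lies within 1000 bp of this site. MYC had 6.19 tags in replicate 2 and no listed peak in replicate 1, whose lowest listed value was 3.8. Whether the missing MYC peak reflects the lower depth of replicate 1 was not tested. Of 9 other receptors of this family, 3 (LRP1, LRP5 and SORL1) had a repeated MYC region and 0 an ATF4 region, again beside 25.2% and 1.4% of all genes.

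Distances between the factors were then set against how far the centre of one factor moved between replicates. That movement had a median of 18 bp over 352 ATF4 regions and 30 bp over 6313 MYC regions. Its 95th percentiles were 75.7 bp for ATF4 and 109 bp for MYC. At TBL1X, IRAK1BP1 and NRSN2 the replicate centres of the factors were not separated, and their mean distances of 15.5, 7 and 28 bp were within the error. At STK40, TXNDC12 with BTF3L4, OXR1 and ARHGAP9 all MYC centres lay on 1 side of all ATF4 centres. Their mean distances were 196, 131.5, 98.5 and 64 bp, and the smallest distance between any 2 libraries was 184, 125, 82 and 46 bp. The distances at OXR1 and ARHGAP9 were below the 95th percentile of the MYC movement. With 2 libraries per factor, a separation at these 2 sites is therefore not settled. Listed peaks in activated cells were 148 to 204 bp wide, and at TXNDC12 with BTF3L4, OXR1 and ARHGAP9 the peaks overlapped in both replicates. At STK40 the peaks were 46 bp apart in replicate 1 and overlapped by 3 bp in replicate 2, so they were close to adjoining. The STK40 distance was the second widest of the 65 shared regions, whose median was 60 bp (quartiles 32 and 98.5), and the median over the 9 sites was 64 bp.

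**Figure D3:**
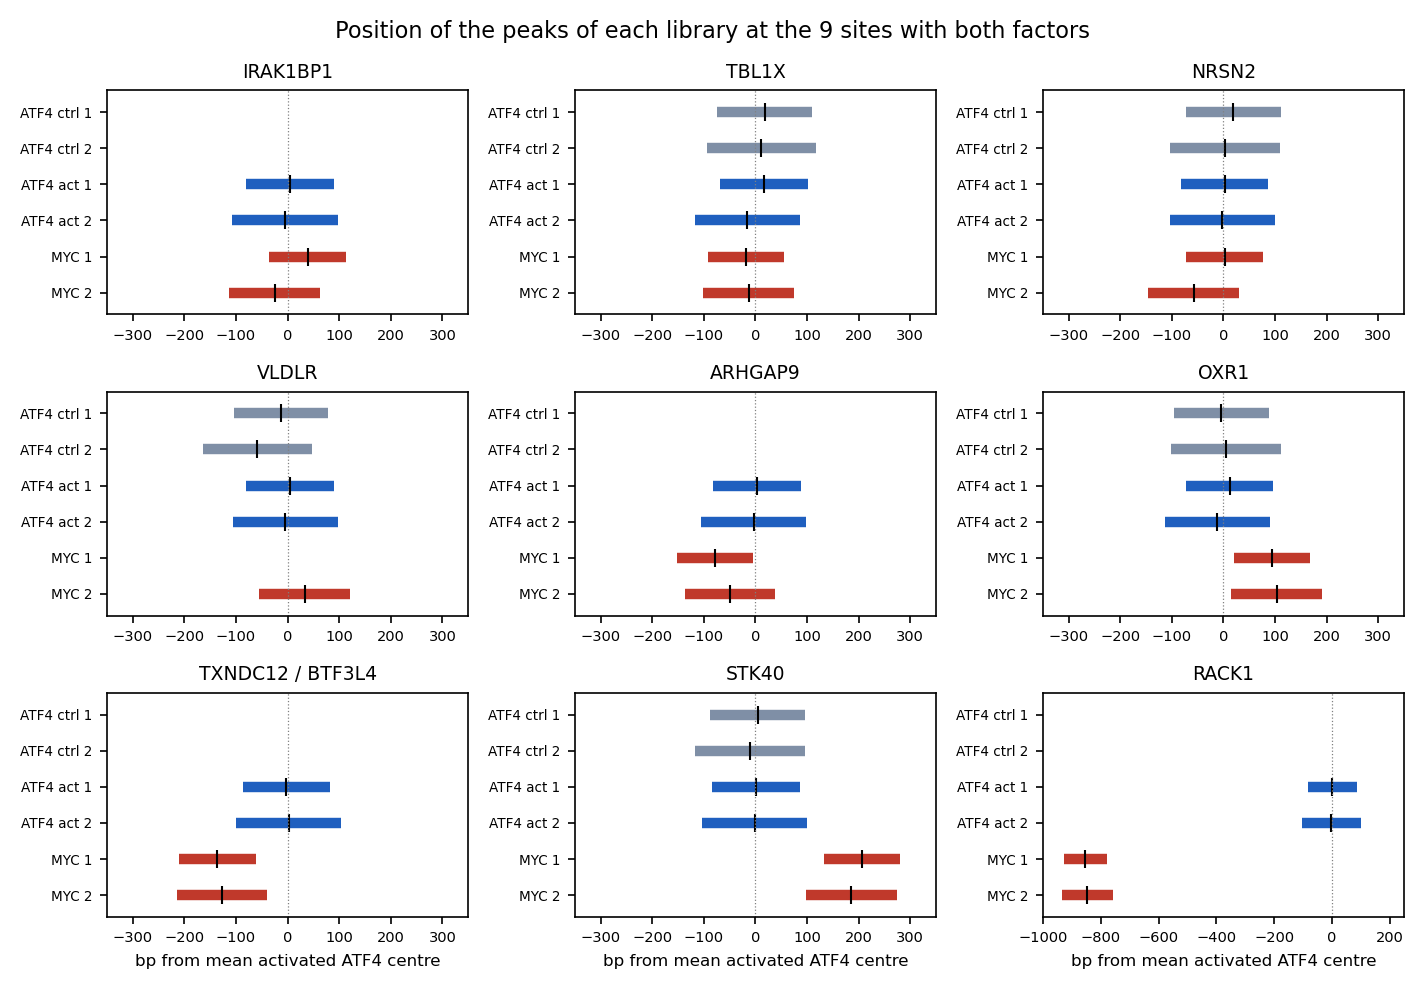
Extent (bar) and centre (tick) of the peak of each library at the 9 sites, in bp from the mean activated ATF4 centre, ordered by centre distance from 7 bp (IRAK1BP1) to 850 bp (RACK1). Sites in the upper row have centres that are not separated, and RACK1 has separate peaks on a wider axis.

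Against the 65 shared regions, the 7 overlapping sites covered most of the range of MYC against ATF4 signal. MYC exceeded ATF4 by mean tags in 36 of the 65, with a median ratio of 1.02. TBL1X had the third highest ratio (4.27) and OXR1 the 60th (0.456), while NRSN2 (1.3), IRAK1BP1 (1.26), TXNDC12 with BTF3L4 (1.01), STK40 (0.876) and ARHGAP9 (0.739) lay between. The tags were scaled only to depth, MYC peaks were narrower than ATF4 peaks, and antibodies differ. A ratio therefore ranks sites and does not compare amounts of the proteins.

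**Figure D4:**
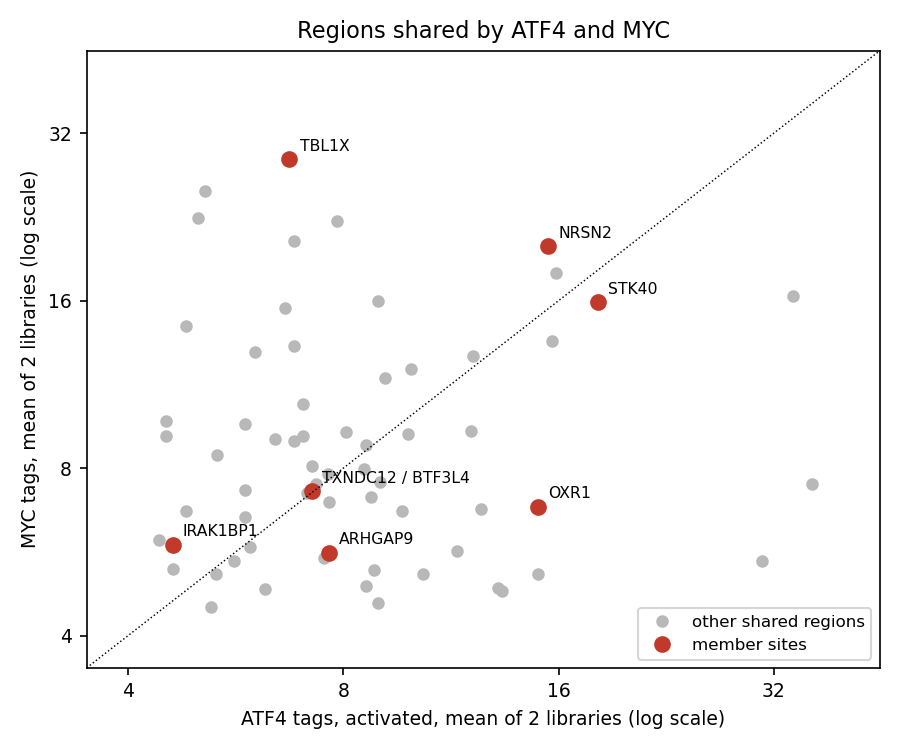
Mean MYC tags against mean activated ATF4 tags (both log scale, 2 libraries each) at the 65 shared regions, with the overlapping sites of the genes in red and equality as a dotted line. TBL1X stands highest on the MYC axis, and OXR1 lies below the line.

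The effect of MYC activation on ATF4 signal was tested at the 105 regions listed in each of the 4 ATF4 libraries, by limma on log2(tags + 1), a scale that understates the change of weak regions. The genes had 6 such regions. VLDLR had 5.71 ± 0.764 tags in control and 11.45 ± 0.919 in activated cells (SD, n = 2), and its log2 change was 0.89 ± 0.29 (standard error, limma adjusted p = 0.0158). The MYC-bound OXR1 site had 8.34 ± 0.834 and 14.95 ± 4.88 tags, and its log2 change was 0.74 ± 0.29 (limma adjusted p = 0.0397). The others did not pass, with log2 changes of 0.43 at STK40 (limma adjusted p = 0.216), 0.40 at the second OXR1 site (0.217), 0.39 at NRSN2 (0.253) and 0.17 at TBL1X (0.531). Thus 2 of 6 regions rose and 0 fell, against 39 (37.1%) and 0 (0%) of the 105 regions, a share near the background. The 39 became 0 with the replicate number as a block, with centred libraries (9 lower) and with any 1 library left out. The median change was 0.41 for the 6 regions and 0.54 for all. Activated libraries were used in choosing the genes, and the change at VLDLR was known by then, so these values are no independent evidence.

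Neither call held with 1 library fewer, with the replicate block or with centred libraries. Leaving out 1 library kept the VLDLR change at 0.78 to 1.01 (limma adjusted p = 0.0623 to 0.181) and gave OXR1 changes of 0.42 to 1.06 (0.155 to 0.362). Changes that did not pass ranged over 0.13 to 0.73 at STK40, 0.10 to 0.67 at NRSN2, 0.20 to 0.60 at the second OXR1 site and -0.037 to 0.383 at TBL1X. With the replicate number, which depth follows, as a block, the limma adjusted p was 0.12 for VLDLR and 0.116 for OXR1. Centring each library on its median, which moved the median change of all 105 regions from 0.54 to -0.11, left changes of 0.25 (limma adjusted p = 0.601) at VLDLR and 0.095 (0.856) at OXR1 and made the other 4 changes negative.

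**Figure D5:**
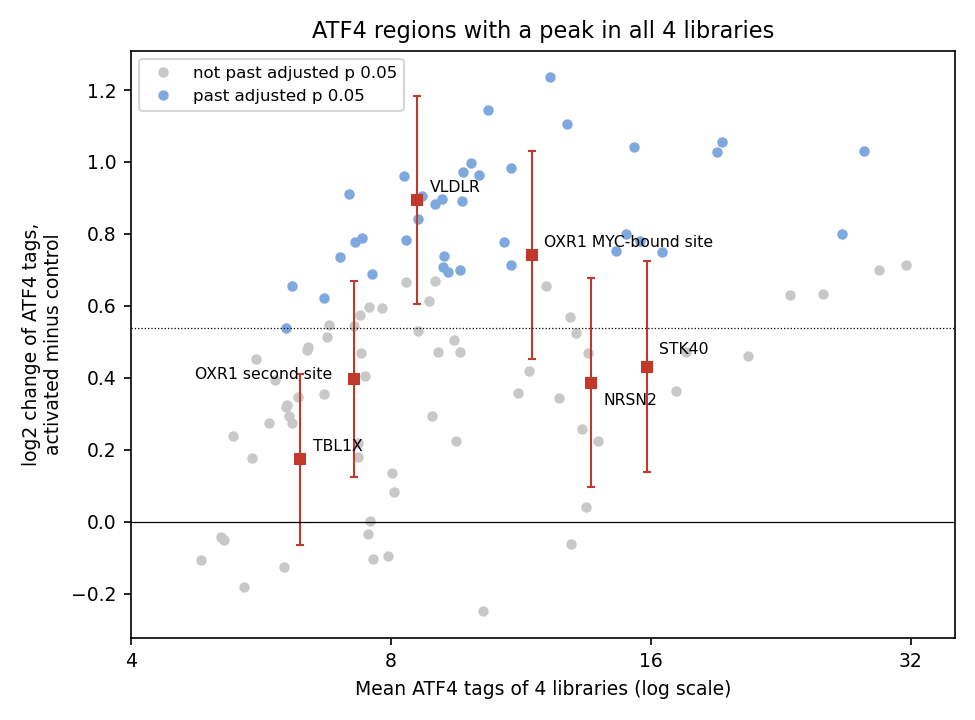
Log2 change of ATF4 tags (activated minus control) against mean tags (log scale) at the 105 regions, with the 6 regions of the genes as red squares with limma standard errors and the median of all regions as a dotted line. VLDLR and the MYC-bound OXR1 site lie above that median and the other 4 below it.

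The remaining 4 sites, at TXNDC12 with BTF3L4, IRAK1BP1, ARHGAP9 and RACK1, were listed for ATF4 in both activated libraries and in no control library. Such a state was found at 4 of the 9 sites with both factors and at 152 of all 352 repeated activated regions (43.2%), so this share too is near the background. Activated tags at the 4 sites ran from 3.62 to 8.04, and the lowest values listed in control replicates 1 and 2 were 4.46 and 2.98. A control signal under those values would not have been listed. They are the lowest values of whole lists, so a higher control signal may also have gone unlisted at a site. Presence and absence here therefore do not give a fold change. Where replicate 1 lists whole counts, the peaks at the 9 sites rested on 9 to 52 tags each.

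By family or function, 10 lists were drawn up around these genes. Only in that of the Tribbles family and COP1 did a further gene have a repeated ATF4 region in activated cells within 10 kb. That gene was TRIB3, 1 of the 4 other genes of this list (beside STK40). Each list holds 1 of the 10 genes, which was chosen for its peaks, so only the other genes are counted next. Their counts stand beside 25.2% of all genes with a repeated MYC region and 1.4% with a repeated activated ATF4 region. All 5 other genes of the NCoR list had a repeated MYC region. Of 18 other protein disulfide isomerases 5 had MYC (P4HB, PDIA3, PDIA5, TXNDC11 and TMX2). Of 4 other genes of the nascent-chain complex 2 had MYC (BTF3 and NACA). Of 10 other interleukin-1 and Toll receptor signalling genes 2 had MYC (IRAK2 and TOLLIP), and of 4 other TLDc proteins 2 (NCOA7 and MEAK7). In each of these lists ATF4 had a repeated activated region at 0 of the other genes. The other neurensin had neither factor. For scale, ATF4 had a region at 13 of 20 textbook ATF4 targets and 0 of 21 textbook MYC targets, and MYC at 10 and 16 of them.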

How the data were processed

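ATF4 and MYC binding was measured by ChIP-seq. Reads were processed with Bowtie 0.12.9 and HOMER on hg38, per the submitters' processing notes, and the settings are not given in the sources used here. There is 1 deposited list per library. The normalized tag count is a deposited signal, expressed per 10 M tags per the file headers. The fold over the background library, which the headers do not name, is a ratio per the file headers, the authors' own value, used only to describe or filter peaks. Total tags are a whole-number count in the deposited replicate 1 lists and are scaled in replicate 2, so no count test was run. Depth was read from the steps of low tag counts.

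Peaks overlapping by at least 1 bp were merged per factor, with the strongest peak per library. Gene spans are those of GRCh38.p14, without exons. limma 3.58.1 with a trend was fitted to log2(tag count + 1) over all 105 common ATF4 regions without a replicate term, with Benjamini-Hochberg adjustment at 0.05, and was tested on simulated data. Motif counts, ranks and distances carry no test. Alternatives were the pseudocount (0.5 and 4), centring, a fold of at least 4, windows, overlap rules, the replicate block and each library left out. The genes and the gene lists were chosen with earlier results of these data known. Named genes were the 10 genes, genes overlapping or within 1000 bp of their sites and list genes with a repeated ATF4 region. The nearest genes of the 3 regions most like the site with the most ATF4 tags were also named. Neighbours further than 1000 bp from a site were not all named. List genes with a MYC region alone were named after their values were seen. Figures used matplotlib 3.10.9.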

Additional observations from a re-analysis of the deposited data

How the results depend on the processing

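Of the 10 genes, the number with an overlapping site was 8 and fell to 4 with peaks inside the span only, to 5 with centres at most 100 bp apart and to 5 with a fold over background of at least 4, and leaving out 1 library gave 8 to 9. With peaks inside the span, 4 genes had a repeated activated and 1 a repeated control ATF4 region, against 10 and 5. The median centre distance of 64 bp became 41.5 bp with a fold of at least 4, and was 56 to 82 bp from 1 replicate number. The 39 higher common regions became 0 with a replicate block, 0 with centred libraries and 0 to 0 with 1 library left out, a fit that takes the spread from the group that still has 2 libraries. At an unadjusted limma p under 0.05, 37 regions were higher with the block, 2 with centring and 24 to 47 with 1 library left out. Centring gave 9 lower regions instead of 0. It turned the changes at STK40 to -0.21, NRSN2 to -0.26, the second OXR1 site to -0.25 and TBL1X to -0.47, and leaving out 1 library gave TBL1X changes of -0.037 to 0.383, with -0.011 without control replicate 2 and -0.037 without activated replicate 2. With the replicate block the limma adjusted p was 0.12 for VLDLR and 0.116 for the MYC-bound OXR1 site. The labels give no shared origin for equal replicate numbers, so the numbers were not taken as pairs, though depth and list form follow them. Region by region, same-numbered ATF4 libraries deviated together with r = 0.0976 over 105 regions. This r cannot show a shift common to all regions of a library, so it does not decide whether a block is needed. The cause of these changes was not tested. The planned count test was not run, since not every list holds whole counts.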

Other observations

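Within 10 kb of TRIB3, on chromosome 20, 2 further ATF4 regions were repeated in activated cells. The stronger lay 4536 to 4545 bp beyond TRIB3, with 13.8 and 11.7 tags in control and 14.0 and 16.1 in activated replicates 1 and 2, and a MYC peak of 4.59 tags in replicate 2 only. The other lay 8776 to 8820 bp before TRIB3, with 6.01 and 7.03 tags in activated replicates 1 and 2, 4.91 tags in control replicate 1 and a MYC peak of 6.19 tags in replicate 2. A peak at the annotated start of the TRIB3 span was listed in activated ATF4 replicate 2 only (6.63 tags). The NRSN2 site lies outside the 10 kb window of TRIB3 and comes in addition to these 2 regions. Peaks outside the 10 kb windows of NRSN2 and TRIB3 were not counted here.

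Of the 56 peaks near the 10 genes, 11 lay outside the 9 sites. Those in 1 library only were MYC peaks in replicate 2 inside STK40 (3.99 tags), in the window of ARHGAP9 (6.39 tags) and in the window of NRSN2 (3.99 tags), and ATF4 peaks inside OXR1 in activated replicate 1 (4.41 tags) and control replicate 1 (4.91 tags). No explanation of these single peaks was tested.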
